A study of Drosophila melanogaster with 4 samples.

Results

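Atonal binding was examined at the centromeric end of the Drosophila melanogaster X chromosome, where 227 peaks of the deposited list of 6065 (3.74%) were found. They came from 2 reference sequences of Release 5 of the fly genome: 192 peaks lay on X with a start at 20.4 Mb or beyond, called the proximal X here, and 35 lay on XHet, a scaffold of X heterochromatin assembled apart from the arm. The other 343 peaks of X are called the rest of X. Members were chosen by position alone, but the limit was set with the peak positions already known, so densities on either side of it are given as descriptions. The last listed peak before the limit was X:19927465-19927630, with a fold of 2.28, and the first after it was X:20708001-20708114, with a fold of 1.91. No peak lay in the 780 kb between them.

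The list came from chromatin immunoprecipitation followed by sequencing (ChIP-seq) of eye discs, the larval epithelia that become the compound eye, from third-instar larvae (L3). There were 2 ChIP libraries, precipitated with anti-GFP antibodies, and 2 input libraries from sonicated material that was not precipitated. ChIP and input animals shared 1 genotype, the knock-in IMAGO line ato:GFP, in which Atonal carries green fluorescent protein; they were kept at 25 degrees and were untreated. Per the labels' protocols, 800 discs were isolated from 400 larvae, and 10% of the sonicated volume served as input. Whether libraries 1 and 2 of a group were from separate dissections is not in the labels, and no library without the tagged protein was analysed here.

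Atonal is a basic helix-loop-helix transcription factor that pairs with Daughterless on E-box sites and starts photoreceptor formation by specifying the R8 cell. Near the centromere, fly chromosomes pass from gene-rich euchromatin into pericentric heterochromatin, which is packed with transposon remnants and satellite repeats and is marked by methylated histone H3 lysine 9 and heterochromatin protein 1. The base of the X also carries flamenco, a locus that makes small RNAs against transposons. The coordinates of the peaks are those of Release 5, whereas the gene table at hand describes Release 6, so no peak was assigned to flamenco or to any other gene, exon or repeat, and no sequence is shown.

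Each peak had a fold, the enrichment of ChIP over control, a −log10 q-value, and a width. The fold and p-value together also imply a whole-number ChIP level and a control level under the formula of the peak caller MACS2, and both were recovered for each of the 6065 peaks. Control levels are given as times the lowest level in the list, which 320 peaks share. The list has no value per library, so no value below has an error between replicates, library depth is unknown, and no test was made: peaks are not replicates of a condition, and neighbouring peaks are not independent.

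Peak density was higher in both sources than in the rest of X. There were 95.9 peaks per Mb on the proximal X and 172 per Mb on XHet, against 16.8 per Mb in the rest of X, ratios of 5.70 and 10.2. By count, XHet was in turn less dense than the scaffolds 3LHet and 3RHet, which had 327 and 321 peaks per Mb. The 227 peaks of both sources had a joint density of 103 per Mb. Peaks covered 1.92% of the proximal X and 9.24% of XHet, against 0.330% of the rest of X. On 3LHet and 3RHet they covered 4.81% and 4.83%, so XHet had the larger covered share despite its lower count per Mb. That share rested largely on the 13 close peaks of XHet:189293-204066, which made up 13261 of the 18853 bp covered on XHet. It is therefore not read as a trait of the whole scaffold. The last peak on each sequence stood in for its end, so these lengths are lower bounds.

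Most peaks of the proximal X lay in 2 short stretches. Splitting the 192 peaks wherever neighbours were over 50 kb apart, a rule chosen after the positions were seen, gave 10 stretches. The fullest, X:21397800-21684654, held 104 peaks (54.2%) in 287 kb. The next, X:21760247-21841246, held 66 peaks (34.4%) in 81.0 kb, at 815 per Mb. A gap of 75.6 kb with no peak separated them. Between them, the 2 stretches held 170 of the 192 peaks (88.5%) in 368 kb.

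Outside these stretches the other 22 proximal peaks, over the remaining length, gave a density 0.800 times that of the rest of X. These stretches were left out because they were the fullest, which lowers the ratio by construction. Leaving out the 2 fullest stretches of the rest of X by the same rule as well, which held 58 of its 343 peaks (16.9%) in 249 kb, gave a ratio of 0.951. In bins of 100 kb, the 4 fullest bins of the proximal X, from 21.5 to 21.9 Mb, held 41, 53, 34 and 32 peaks. Each held more than the fullest of the 204 bins in the rest of X, which had 23 peaks between 13.9 and 14.0 Mb. Only 3 peaks lay between the limit and 21.3 Mb, whereas the next 2 bins held 8 and 9. Beyond 21.9 Mb, the bins fell to between 1 and 4 peaks each up to the last peak, at X:22402838-22402913.

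**Figure D1:**
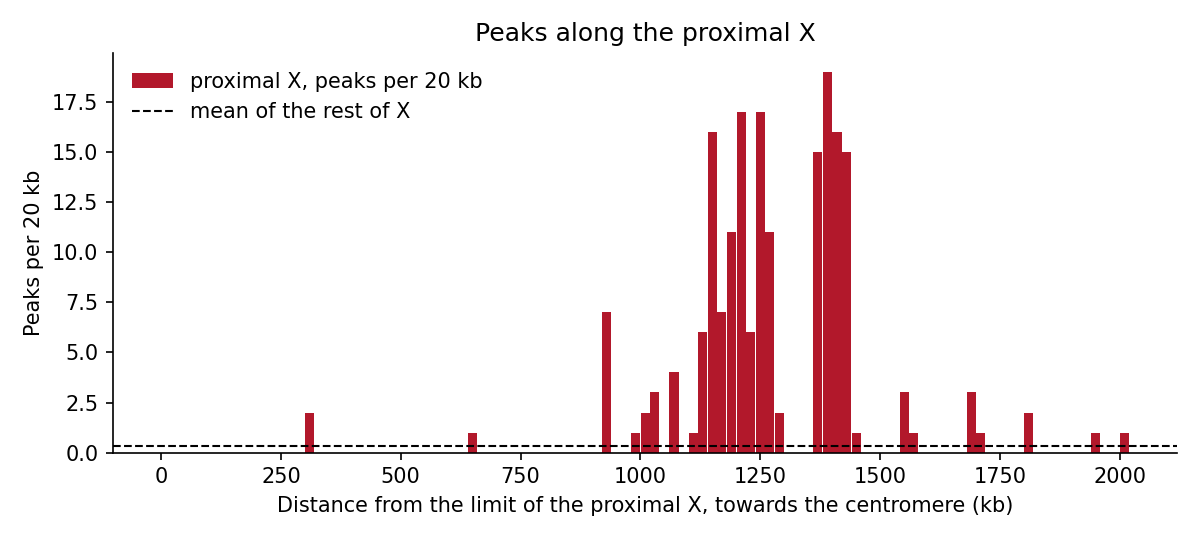
Peaks per bin of 20 kb along the proximal X (vertical axis) by distance in kb from its limit towards the centromere (horizontal axis); the dashed line is the mean of the rest of X, 0.336 peaks per 20 kb. The fullest bin held 19 peaks, 72 of 101 bins held none, and the 2 fullest stretches stand as separate blocks with an empty gap between them.

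The 2 fullest stretches differed in how densely they were covered. Peaks took up 23.7% of the 81.0 kb stretch and 5.64% of the 287 kb stretch. The median control level was 3.17 times the lowest in the shorter stretch and 2.43 times in the longer, and the median ChIP levels were 111 and 76. All 5 proximal peaks with both the highest ChIP level and the highest control level of the list lay in the shorter stretch, as did 8 of the 9 proximal peaks of at least 500 bp. Median fold was nevertheless close, at 1.87 and 1.82, and median width was 140 and 127 bp.

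The smaller stretches showed other profiles. A group of 7 peaks within 4.34 kb, X:21330020-21334359, had folds between 1.49 and 1.60, and the control there was 2.80 to 3.74 times the lowest. By contrast, the 4 peaks of X:21956385-21974083 had folds between 1.99 and 2.68, with the control at 1.52 to 1.84 times the lowest. The 4 peaks of X:22083583-22100270 had folds of only 1.75 to 1.90, although the control there was at most 1.81 times the lowest. A low control level therefore did not always go with a high fold. The last peak on X, a 76 bp peak with a fold of 2.05, was 1 of 2 proximal peaks at the lowest control level.

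On XHet, peaks crowded towards the high-coordinate end. No peak was listed before XHet:93942-94115, and 19 of the 35 peaks (54.3%) lay in the last 20 kb before the final listed base, 204066. Splitting at gaps over 20 kb, again chosen after the positions were seen, gave 2 stretches: 12 peaks in 48.2 kb and 23 peaks in 26.9 kb, with 35.0 kb between them. Peaks covered 5.19% of the first and 60.8% of the second. The median control level was 3.20 times the lowest in the first and 4.30 times in the second.

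The first XHet stretch began with single peaks at roughly even steps. Summits, the positions of highest enrichment within each peak, lay at 93985, 105739, 111623, 117582, 123388 and 129491. The 4 steps from the second of these summits to the sixth were 5884, 5959, 5806 and 6103 bp, and the first step, 11754 bp, was close to the sum of 2 such steps. ChIP levels of the first 5 of these peaks ran from 86 to 93, and their control levels from 2.60 to 3.25 times the lowest. Folds varied between them, at 1.58, 2.00, 1.84, 1.55 and 1.98. The sixth had a higher ChIP level, 120, and opened a close group of 5 peaks.

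Members tended to lie close together. Another peak lay within 1000 bp of 157 of the 192 proximal peaks (81.8%) and 28 of the 35 XHet peaks (80.0%), against 209 of 343 in the rest of X (60.9%). Within 500 bp the shares were 61.5% on the proximal X and 74.3% on XHet, against 52.2% in the rest of X, so that the proximal X came closer to the rest of X and XHet did not. The median gap to the nearest peak was 354 bp on the proximal X and 140 bp on XHet, against 465 bp in the rest of X. The scaffolds 3LHet and 3RHet, with 836 and 804 peaks, had shares of 72.1% and 68.9% within 1000 bp. Such shares rise with peak density by construction, so they are not a trait separate from density. Without the 2 fullest proximal stretches, the difference from the rest of X within 1000 bp was 2.70 percentage points in place of 20.8. It was 7.85 points with the 2 fullest stretches of the rest of X left out as well.

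Joining peaks at most 500 bp apart gave 112 regions on the proximal X and 13 on XHet, against 220 in the rest of X. Of the members' regions, 74 and 9 held a single peak. The proximal region with the most peaks was X:21771701-21776708, where 7 peaks covered 75.0% of 5.01 kb. It was followed by 2 regions of 6 peaks, X:21552804-21555025 and X:21792074-21793985. The first of these 2 reached a control level of 2.497 times the lowest at most. The second, like the region of 7 peaks, reached 4.53 times. Regions of 5 peaks lay at X:21330020-21332628 and X:21555613-21557390. On XHet, 13 peaks joined into 1 region of 14.8 kb, XHet:189293-204066, of which 89.8% was covered, and 6 joined at XHet:183982-186986. The region with the most peaks in the rest of X held 12 peaks in 9.40 kb, so long runs of peaks were also found outside the members.

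Widths on the proximal X matched those of the rest of X at the median, while XHet peaks were wider. The median width was 126 bp on the proximal X (quartiles 86 and 201 bp) and 275 bp on XHet (quartiles 174 and 450 bp), against 126 bp in the rest of X (quartiles 83.5 and 200 bp). A width of at least 200 bp was found in 49 proximal peaks (25.5%) and 22 XHet peaks (62.9%), against 86 in the rest of X (25.1%). On the scaffolds 3LHet and 3RHet the medians were 119 and 117 bp, both under that of XHet. The widest peak of the whole list was XHet:198954-203034, at 4081 bp. Over 2000 bp were reached by 6 peaks of the list, of which 3 were on XHet, 1 on the proximal X and 0 in the rest of X. At least 500 bp was reached by 9 proximal peaks (4.69%) and 8 XHet peaks (22.9%), against 27 in the rest of X (7.87%). By that share the proximal X was below the rest of X.

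**Figure D2:**
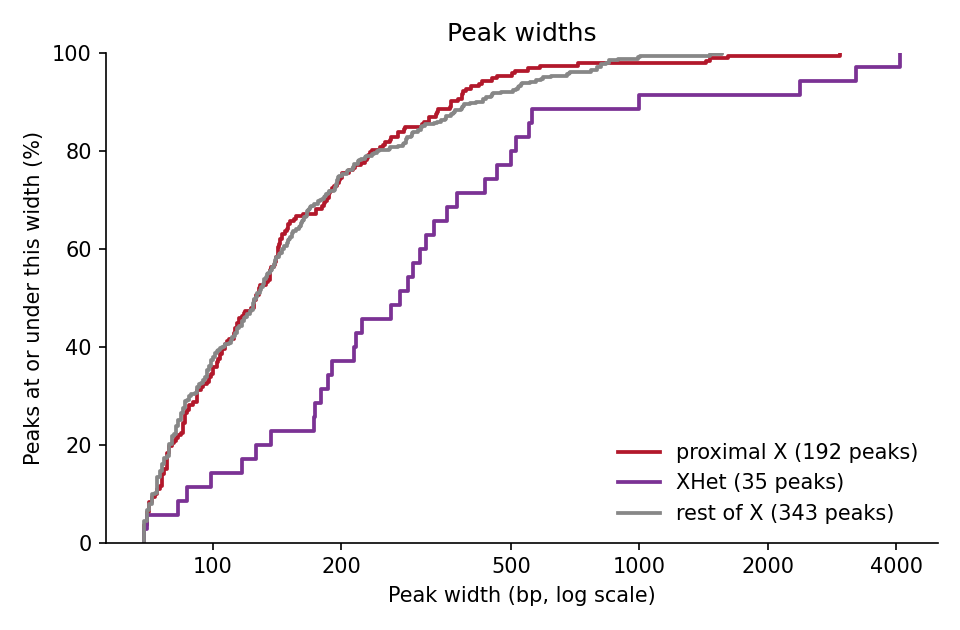
Share of peaks (vertical axis, %) at or under each width (horizontal axis, bp, log scale) on the proximal X, XHet and the rest of X. The proximal X and the rest of X share a median of 126 bp and have upper quartiles of 201 and 200 bp. The XHet curve lies to the right, with a median of 275 bp.

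The widest members carried the same values as one another. The widest proximal peaks were X:21801699-21804649 (2951 bp), X:21764894-21766508 (1615 bp) and X:21784253-21785718 (1466 bp), and after the 4081 bp peak the widest on XHet were XHet:194021-197240 (3220 bp) and XHet:190242-192627 (2386 bp). Each of these 5 had a ChIP level of 138, a control level 4.53 times the lowest, 1.73-fold enrichment and a −log10 q of 5.84. Those are the highest ChIP and the highest control level in the list, and the fold and q follow from the 2 levels. The 4081 bp peak also had a ChIP level of 138, with a control level and fold that equal these when rounded. The next widest on XHet, at 999 bp, had the shared values too. The next widest proximal peak, at 1430 bp, had a ChIP level of 138, a control level of 4.34 times the lowest and a fold of 1.81.

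In all, 51 peaks of the list were at both highest levels: 5 on the proximal X (2.60%), 6 on XHet (17.1%) and 4 in the rest of X (1.17%). The 5 proximal ones made up 17.9% of the bases covered there, and the 6 on XHet made up 41.5%, against 4.29% for the 4 in the rest of X. Peaks at both highest levels have the same fold by construction. What sets the highest levels is not given in the sources used here.

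**Figure D3:**
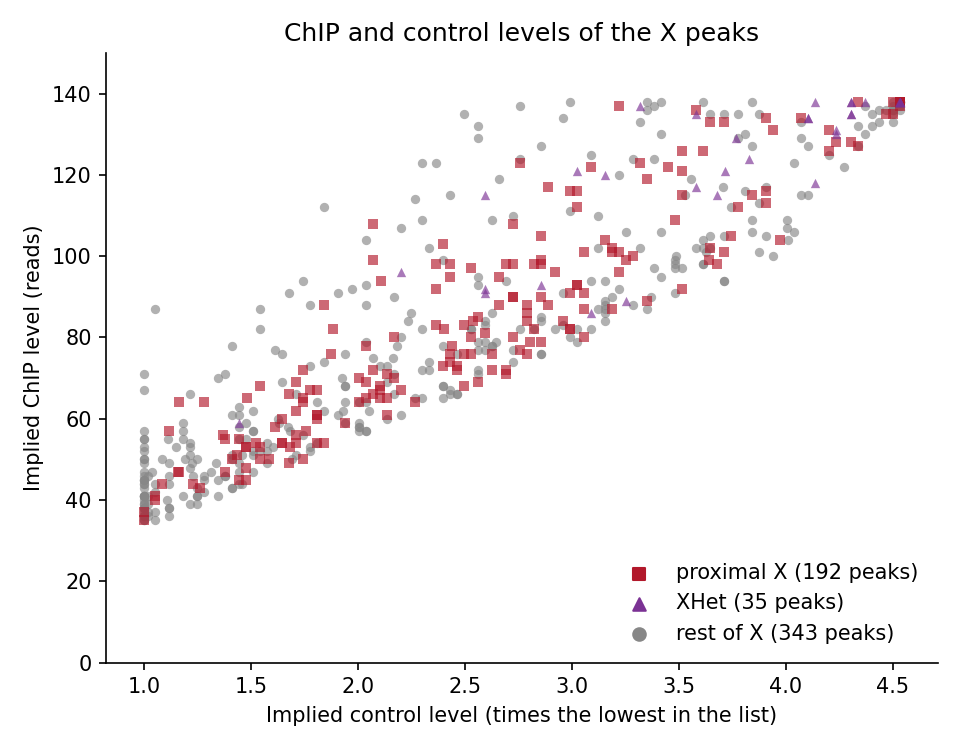
Implied ChIP level (vertical axis, reads) against implied control level (horizontal axis, times the lowest in the list) for each peak of the proximal X (squares), XHet (triangles) and the rest of X (circles). No peak exceeds a ChIP level of 138 or a control level of 4.53, and XHet peaks gather at the upper right, where both are reached.

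Enrichment was modest among the members. The median fold was 1.84 on the proximal X and 1.82 on XHet, against 1.89 in the rest of X. At a fold of at least 2 there were 59 proximal peaks (30.7%) and 8 XHet peaks (22.9%), against 40.5% of the rest of X and 35.4% of the whole list. At a fold of at least 2.5 there were 8 proximal peaks (4.17%) and 0 of 35 on XHet, against 14.9% of the rest of X and 6.88% of the whole list. Only 1 member, the proximal peak X:21643742-21643886, had a fold of at least 3 (0.521% of the proximal peaks), against 4.08% of the rest of X and 1.43% of the whole list. That peak was 145 bp wide, with a fold of 3.04, a ChIP level of 64 and a control level 1.16 times the lowest.

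The median control level was also higher in both sources, including the proximal X, whose median width equalled that of the rest of X. The part of the control level in the differences was not tested. The median control level was 2.55 times the lowest on the proximal X and 4.11 times on XHet, against 2.20 times in the rest of X. It was under 1.5 times the lowest at 24 proximal peaks (12.5%) and 1 XHet peak (2.86%), against 102 peaks in the rest of X (29.7%). At the upper end the proximal X was not higher. Its upper quartile was 3.19 times the lowest, against 3.28 times in the rest of X and 4.30 times on XHet. At least 4 times was reached by 16 proximal peaks (8.33%) and 18 XHet peaks (51.4%), against 34 in the rest of X (9.91%). With a ChIP level of at most 138, a fold of 3 can be reached only up to a control level 2.59 times the lowest. That was the case for 98 proximal peaks (51.0%) and 2 XHet peaks (5.71%), against 208 in the rest of X (60.6%).

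At similar control levels the sources were closer in some ranges and apart in others. Under 1.5 times the lowest, the median fold was 2.08 over 24 proximal peaks, against 2.22 over 102 in the rest of X. The 1 XHet peak in that range had a fold of 2.28. From 1.5 to 3 times the median fold was 1.85 over 109 proximal peaks and 2.00 over 5 XHet peaks, against 1.87 over 136. From 3 to 4 times it was 1.77 over 43 proximal peaks and 1.85 over 11 XHet peaks, against 1.63 over 71 in the rest of X. At 4 times and above it was 1.73 over 16 proximal peaks and 1.75 over 18 XHet peaks, against 1.72 over 34. By value, the XHet median was the higher in each of the 4 ranges, although its median over all peaks was lower than that of the rest of X. The lowest range rests on 1 XHet peak and the next on 5. The proximal X was lower in the 2 lower ranges and higher in the 2 upper ones. At 4 times and above, the highest ChIP level, 138, limits how high a fold can be. Folds there ran from 1.62 to 1.89 on XHet, against 1.47 to 1.85 in the rest of X. The order of the close medians in this last range is therefore not read as a difference in enrichment. Of the 22 XHet peaks of at least 200 bp, 17 lay in this last range, where 17 of 18 XHet peaks were that wide, against 28 of 34 in the rest of X. From 3 to 4 times it was 2 of 11 XHet peaks, against 28 of 71, and from 1.5 to 3 times it was 3 of 5, against 21 of 136. The order of XHet and the rest of X in width thus differed between ranges. Density by control level could not be given per length, because the length of sequence at each control level is unknown.

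The strongest proximal peaks by −log10 q were not the widest. The first, X:21397800-21397979, was 2.93-fold enriched over 180 bp at a −log10 q of 17.0, and its nearest neighbour was 3937 bp away. It opens the 287 kb stretch. Next came X:21799499-21799918 (420 bp, 2.40-fold) and X:21815864-21816412 (549 bp, 2.51-fold), both in the 81.0 kb stretch, with −log10 q of 14.9 and 14.6. They were followed by the narrow peaks X:21604173-21604243 (71 bp, 2.68-fold) and X:21974014-21974083 (70 bp, 2.68-fold), with −log10 q of 13.2 and 11.6. The fourth lay 97 bp from another peak, whereas the fifth stood 16884 bp from its nearest neighbour.

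On XHet, the highest −log10 q was 13.9, at XHet:189293-189586, a 294 bp peak enriched 2.33-fold over a control level 3.32 times the lowest. The next were XHet:185475-185688 (214 bp, 2.496-fold), XHet:177168-177254 (87 bp, 2.26-fold), XHet:185846-186346 (501 bp, 2.13-fold) and XHet:179818-180007 (190 bp, 2.45-fold). All 5 lay in the 26.9 kb stretch at the end of the scaffold. The median −log10 q was 6.22 on XHet and 4.11 on the proximal X, against 3.96 in the rest of X. At equal fold, −log10 q rises with the levels, and the median ChIP level was 131 on XHet and 82 on the proximal X, against 76 in the rest of X, so a higher −log10 q is not by itself a higher enrichment.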

How the data were processed

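The processed data are 1 peak list with 10 columns and no header, in the narrowPeak layout. The submitters' processing notes name Bowtie2 2.2.1. Which peak caller was used and how, on which build, and whether libraries were pooled first is not given in the sources used here. Release 5 was read from the sequence names ending in Het. In 100% of peaks the deposited score is the whole part of 10 times the −log10 q-value, as deposited. The deposited fold ratio and the deposited −log10 p-value were read by their place in that layout, and the weakest listed q-value was 0.0499.

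From these, starts were shifted to count from 1. ChIP and control levels were found by searching the whole-number ChIP level that satisfies fold = (ChIP + 1)/(control + 1) and a Poisson upper tail p, with −log10 p matched to within 1e-04. Misfits reached 8.29e-05 at most, against 0.0247 or more for the second-best level. Tested on 6065 simulated peaks, the search recovered 100%. Those peaks were made with the same formula, so the test cannot show that the deposited values arose from it. Their folds did not extend to the lowest and highest of the list, 1.41 and 6.28. Gaps were measured from edge to edge. Python 3.11.15, NumPy 2.4.6, pandas 2.3.3, SciPy 1.17.1 and matplotlib 3.10.9 were used. The members, limits and lists were chosen with earlier results of these data known. Named peaks are, in each source, the 5 with the highest −log10 q, the 3 widest and those with a fold of at least 3, besides the joined regions with the most peaks and the peaks at the limit; peaks of the small stretches and of the XHet series were chosen after their values were seen. Alternatives were a limit at the median score, joined peaks, other limits of the proximal X and of neighbours, and a limit on the control level.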

Additional observations from a re-analysis of the deposited data

How the results depend on the processing

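Of 40 alternative values for the 7 comparisons with the rest of X, 19 stayed in the same direction and within 1.5 times, 17 moved further and 4 turned; none had a test. The alternatives without the fullest stretches and without peaks at both highest levels were chosen after seeing the data. Without the 2 fullest proximal stretches, a selection that lowers density by construction, the proximal density ratio turned from 5.70 to 0.800, the width difference became −16.5 bp, the fold difference −0.0844 and the difference in close neighbours 2.70 percentage points in place of 20.8. Leaving out the 2 fullest stretches of the rest of X as well, these were 0.951, −7.5 bp, −0.114 and 7.85 points. A control level under 1.5 times the lowest left 24 proximal, 1 XHet and 102 other peaks, with density ratios of 2.40 and, for XHet, 0.980; this limit removes peaks but no length. At or above the median score the XHet density ratio was 18.7, the proximal differences in width and fold were 1.5 bp and −0.214, and the XHet fold difference was −0.381 in place of −0.0748. Joining peaks gave 5.91 for the XHet density ratio, 35.5 and 84.5 bp for the width differences on the proximal X and XHet, −0.0991 for the proximal fold difference in place of −0.0497, and 0.00362 for that of XHet, which turned. A joined region took the highest fold among its peaks, which raises regions of several peaks by construction. The fold differences after joining are therefore not the same measure as the main ones, and the turn is not read as a change in enrichment. Without peaks at both highest levels the XHet width difference was 92.0 bp in place of 149 bp. With neighbours within 500 bp the difference was 9.27 percentage points. Moving the limit to 20 or 21 Mb gave proximal density ratios of 4.66 and 8.24. At 20 Mb the same 192 proximal and 343 other peaks remained. The differences in width, fold and neighbours there, counted among the 19, therefore equal the main values by construction. At 21 Mb there were 190 and 345 peaks, so those differences could change little. Apart from what each limit removes or joins by construction, the cause was not tested. No paired analysis was possible because the peaks carry no values of single libraries, and for the same reason no replicate was left out.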

Other observations

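The opposite end of the X also held a close group of wide peaks at raised control levels. In the first 20 kb of the sequence, 20 peaks lay between 847 and 18858, with a median width of 322 bp, a median fold of 1.70 and a median control level 4.07 times the lowest. The 23 peaks of the last XHet stretch had a median width of 306 bp, a median fold of 1.82 and a median control level of 4.30 times the lowest. At the tip of X, 1 peak was at both highest levels, against 6 in that XHet stretch.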
